A study of Bos taurus with 24 samples.

Results

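The miR-15, miR-16, miR-195 and miR-497 family of microRNAs (miRNAs) was followed in the mammary gland of lactating cows before and after feed restriction. The members were the miRNAs listed under the names bta-miR-15a, bta-miR-15b, bta-miR-16a, bta-miR-16b, bta-miR-195 and bta-miR-497, taken by name alone and not by their values, which makes 6 of the 796 miRNAs listed. Mammary biopsies came from 5 Holstein (HOLS) and 6 Montbéliarde (MONT) multiparous cows in midlactation, and each biopsy gave 1 small RNA library. Every cow was sampled on day 0, when feed was given without limit (CONT), and again on day 6 of a feed restriction (REST), which the labels set at 60% of the net energy of lactation, while the study's methods state a lower percentage. The study asked which mammary miRNAs respond to this restriction. The labels list 2 further libraries of a HOLS cow, which were not analysed here.

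A miRNA guides the silencing machinery to messenger RNAs that pair with its seed, the short stretch near its 5′ end. The members of this family carry the same seed, and their best-known targets are messengers of cyclins and cyclin-dependent kinases that drive a cell from G1 into S phase, and the survival factor BCL2. In many tissues they therefore act as brakes on proliferation. The genes lie in pairs that are transcribed together, and in the RefSeq gene table of cattle (assembly ARS-UCD2.0) MIR15A and MIR16A, MIR15B and MIR16B, and MIR195 and MIR497 were each direct neighbours, with 0 genes between them. The authors aligned to another build, so no positions are given. The mature miR-16a and miR-16b are near-identical, and how the authors assigned reads that fit both was not given in the sources used here. Their separate levels are therefore uncertain, and values for both added up are given as well.

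The libraries held between 7431936 and 18149037 miRNA counts in HOLS and between 6087865 and 18913916 in MONT. All 6 miRNAs of the mammary epithelium list (miR-200a, miR-200b, miR-200c, miR-141, miR-429 and miR-205) were detected in every library, with a summed level between 139184 and 641434 normalized counts. In the skeletal muscle list miR-206 was not among the miRNAs listed, and the other two added up to between 424 and 1981 normalized counts. A normalized count is a count divided by the library's DESeq2 size factor, estimated over all 22 libraries. In bulk tissue, a lower share of a cell type and less of the miRNA per cell cannot be told apart.

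The family made up 0.298% ± 0.0569 (SD, n = 22 libraries) of all miRNA counts, between 0.201% and 0.387%. miR-16a was its most abundant member, with a mean of 12078 normalized counts and place 55 among the 796 miRNAs listed. miR-16b followed with a mean of 8300.0 and place 61, and miR-195 with 7760 and place 62. miR-15a averaged 3144 normalized counts and held place 82, miR-497 averaged 2021 and held place 95, and miR-15b averaged 220 and held place 176. Counts of different miRNAs also reflect how well each one is captured by adapter ligation, so this order describes counts, not molecules. All 6 members passed the filter on low counts in each comparison, and none had the same counts as another listed miRNA in every library. The lowest count of the scarcest member was 76, for miR-15b in the CONT library of MONT cow 5663, which has an exact 95% Poisson interval of 59.9 to 95.1. That interval covers counting error only. The lowest count of any other member was 828.

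Within single libraries the order held to different degrees. miR-195 exceeded miR-15a in 22 of 22 libraries, and miR-497 exceeded miR-15b in 22 of 22. miR-15a exceeded miR-497 in 21 of 22 libraries, the exception being the REST library of MONT cow 2614. miR-16a exceeded miR-16b in 19 of 22 libraries, and the exceptions were the REST libraries of MONT cows 1640, 1652 and 5663. miR-16b exceeded miR-195 in 13 of 22 libraries only, so these neighbours had no settled order.

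Of the family's own normalized counts, the pair of miR-15a and miR-16a held 44.8% ± 6.08 (SD, n = 22). The pair of miR-195 and miR-497 held 29.6% ± 5.70, and the pair of miR-15b and miR-16b held 25.5% ± 2.52. In HOLS (n = 5 per period) the share of the miR-15a and miR-16a pair was 50.9% ± 2.68 in CONT and 47.8% ± 2.51 in REST, and in MONT (n = 6 per period) it was 44.5% ± 5.10 and 37.7% ± 3.34. The share of the miR-195 and miR-497 pair ranged from 21.4% to 30.1% in HOLS CONT and from 22.5% to 31.05% in HOLS REST, and in MONT from 25.2% to 41.3% before and from 32.0% to 41.8% under restriction. These shares are free of any scaling between libraries, and they are given as a description without a test.

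**Figure D1:**
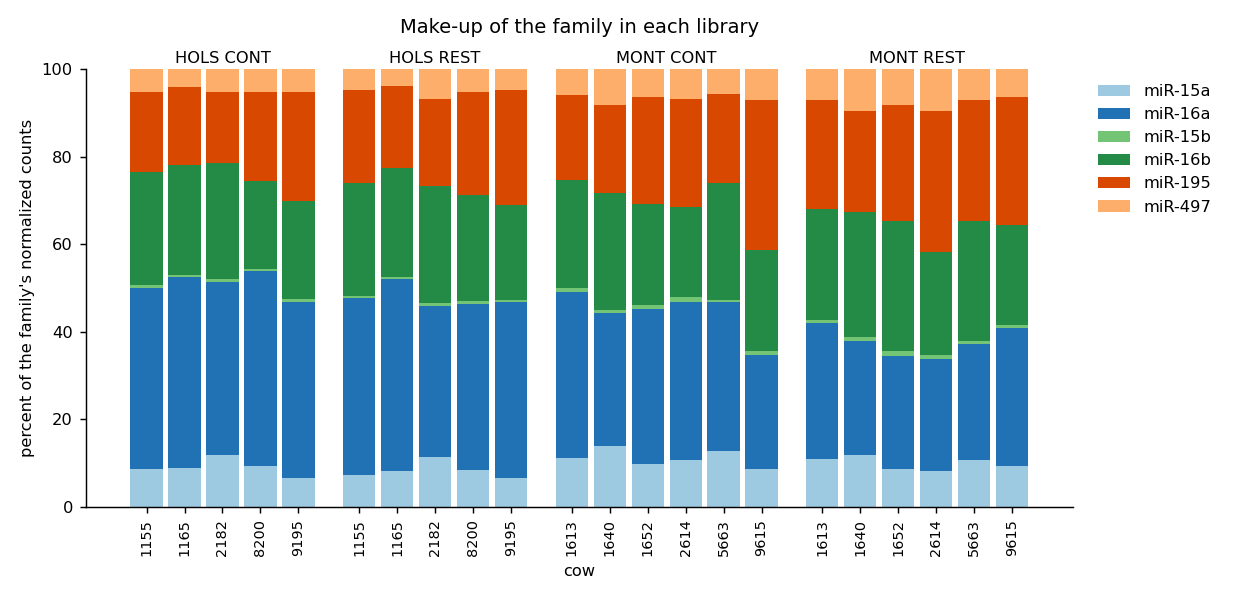
Stacked bars give the percent of the family's normalized counts (vertical axis) that each member held in each of the 22 libraries, grouped by breed and period and labelled by cow. The blue blocks of miR-15a and miR-16a together take 50.9% on average in HOLS CONT and 37.7% in MONT REST, while the orange blocks of miR-195 and miR-497 reach from 32.0% to 41.8% in MONT REST.

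The first question was whether feed restriction moved the family. It did not pass the test in either breed when the libraries were compared without the cow as a block. In normalized counts, miR-16b, miR-195 and miR-497 were each higher in REST than in CONT in 10 of 11 cows. The exception was MONT cow 9615 for all of them. How many of all miRNAs were higher in as many cows was not counted. Over 388 miRNAs, cow 9615 was also the only cow whose libraries' deviations from the group means correlated below 0 (r = -0.20). As a percent of the library's miRNA counts, miR-195 was higher in 9 of 11 cows and miR-16b and miR-497 in 7 of 11 each, of which 2 of 5 HOLS and 5 of 6 MONT cows each. With the cow as a block, miR-195 passed the test in HOLS and rose 1.28-fold. This call was lost with libraries scaled by their totals alone, and without any one of cows 1155, 1165 and 2182. It was kept with the other scalings tried and without cow 8200 or 9195. miR-15a and miR-16a were higher in 6 of 11 and 4 of 11 cows in normalized counts, and in 2 of 11 each as a percent of the library.

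miR-195 and miR-497 are known to hold skeletal muscle stem cells in quiescence. For the HOLS cows 1155, 1165, 2182, 8200 and 9195, in this order, miR-195 had 6764, 6789, 4962, 7585 and 10228 normalized counts in CONT. In REST the same cows had 9695, 9577, 6293, 9184 and 11805. Each of the 5 cows was higher in REST, but the groups overlapped, with cow 2182 lowest and cow 9195 highest in both periods. In MONT, miR-195 had a lowest, median and highest value of 4890, 5622 and 10846 normalized counts in CONT and of 5819, 8300 and 9628 in REST. The high CONT value belonged to cow 9615, the single cow in which miR-195 was lower in REST, at 8170. The groups overlapped in MONT as well. The log2 fold change of REST over CONT was 0.34 ± 0.20 (SE) in HOLS and 0.31 ± 0.19 in MONT, with edgeR's Benjamini-Hochberg adjusted p of 0.307 and 0.437. With the cow as a block it was 0.36 ± 0.09 in HOLS, with edgeR's adjusted p of 0.0174, and 0.33 ± 0.16 in MONT, with an adjusted p of 0.292. The blocked HOLS call was lost when libraries were scaled by their totals alone, with a log2 fold change of 0.19 and edgeR's adjusted p of 0.193. It was also lost without cow 1155, 1165 or 2182, in fits added after the values were seen, with adjusted p of 0.0694, 0.0750 and 0.0575. In MONT without cow 9615, the blocked fit gave miR-195 a log2 fold change of 0.46 with edgeR's adjusted p of 0.0127, where 65 of all 358 miRNAs tested passed as higher.

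For the same HOLS cows in the same order, miR-497 had 1875, 1588, 1566, 1969 and 2096 normalized counts in CONT and 2214, 1913, 2175, 2008 and 2157 in REST. Each of the 5 cows was higher in REST, though cows 8200 and 9195 moved by only 0.03 and 0.04 on the log2 scale, and the groups overlapped. As a percent of the library's miRNA counts, miR-497 was higher in REST in 2 of 5 HOLS cows (2182 and 8200), and with libraries scaled by their totals alone its HOLS log2 fold change was 0.029. In MONT, miR-497 had a lowest, median and highest value of 1449, 1791 and 2202 in CONT and of 1806, 2377 and 2837 in REST. Cow 9615 had the highest value of all in CONT and the lowest in REST, while cow 2614 had the lowest in CONT and the highest in REST. The log2 fold change was 0.19 ± 0.13 (SE) in HOLS, with edgeR's adjusted p = 0.358, and 0.38 ± 0.15 in MONT, with an adjusted p = 0.314. In MONT the unadjusted p of the edgeR fit was 0.0216, and the adjusted p was 0.292 with the cow as a block. Without MONT cow 9615 the log2 fold change was 0.49 and edgeR's adjusted p was 0.0413. With the block the log2 fold change was 0.49, with an adjusted p of 0.0127. Of all 358 miRNAs tested without this cow, 26 passed as higher without the block and 65 with it.

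miR-15b and miR-16b share a transcript that is switched on with the cell cycle in many cell types. For the same HOLS cows, miR-16b had 9484, 9723, 8135, 7500.2 and 9239 normalized counts in CONT and 11851, 12724, 8404, 9521 and 9751 in REST. In normalized counts it was higher in REST in 5 of 5 cows, by between 0.05 and 0.39 on the log2 scale, and the groups overlapped. As a percent of the library's miRNA counts it was higher in 2 of 5 HOLS cows (1165 and 8200), and with library totals alone as the scaling its HOLS log2 fold change was 0.046. In MONT, miR-16b had a lowest, median and highest value of 4384, 6976 and 7466 in CONT and of 6459, 7738 and 9365 in REST, with cow 2614 far below the others in CONT. For miR-16b the log2 fold change was 0.23 ± 0.12 (SE) in HOLS and 0.23 ± 0.14 in MONT, with edgeR's adjusted p of 0.281 and 0.437. With the cow as a block edgeR's adjusted p was 0.0717 in HOLS and 0.306 in MONT.

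miR-15b, the scarcest member, had 215, 186, 184, 157 and 222 normalized counts in CONT and 247, 194.5, 227, 243 and 180 in REST in the HOLS cows. Cow 8200 moved from the lowest value to one of the highest, cow 9195 the other way, and the groups overlapped. In MONT, miR-15b had a lowest, median and highest value of 142, 216 and 304 in CONT and of 186, 218 and 386 in REST. Its log2 fold change was 0.17 ± 0.15 (SE) in HOLS and 0.26 ± 0.24 in MONT, with edgeR's adjusted p of 0.538 and 0.576. miR-15b was higher in REST in 4 of 5 HOLS and 4 of 6 MONT cows.

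miR-15a and miR-16a come from the locus first known for its loss in chronic lymphocytic leukaemia. In the HOLS cows, miR-16a had 15198, 16766, 12111, 16677 and 16481 normalized counts in CONT and 18530.0, 22357, 10872, 14832 and 18148 in REST. It was higher in REST in cows 1155, 1165 and 9195 and lower in cows 2182 and 8200. In MONT the lowest, median and highest values of miR-16a were 7403, 8904 and 10954 in CONT and 6538, 8058 and 10420 in REST, and it was lower in 5 of 6 cows. The log2 fold change was 0.11 ± 0.16 (SE) in HOLS and -0.15 ± 0.14 in MONT, with edgeR's adjusted p of 0.732 and 0.579. With miR-16a and miR-16b added up it was 0.14 ± 0.14 in HOLS and 0.07 ± 0.13 in MONT, with adjusted p of 0.610 and 0.789.

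miR-15a had HOLS values of 3184, 3416, 3614, 3433 and 2730 normalized counts in CONT and 3343, 4204, 3620, 3294 and 2928 in REST. As a percent of the library's miRNA counts it was lower in REST in 5 of 5 HOLS cows. In MONT the lowest, median and highest values were 2239, 3009 and 3536 in CONT and 2403, 2862 and 3593 in REST. The periods overlapped in both breeds, and the log2 fold change was 0.08 ± 0.11 (SE) in HOLS and -0.04 ± 0.14 in MONT, with edgeR's adjusted p of 0.732 and 0.870. With libraries scaled by their totals alone the HOLS value was -0.10.

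**Figure D2:**
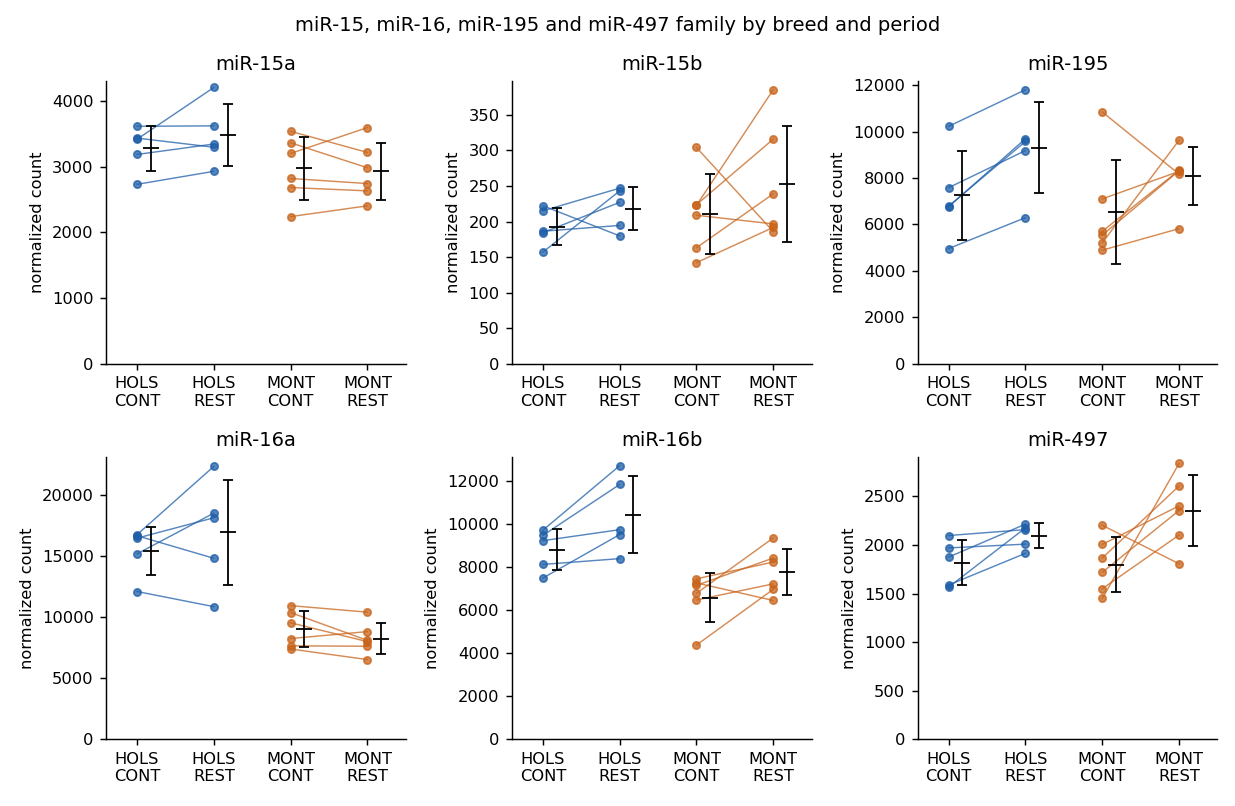
Each panel gives the normalized counts of one member (vertical axis, from 0) in each library by breed and period (horizontal axis), with the libraries of a cow joined by a line and the mean and SD of each group in black. miR-16a lies between 10872 and 22357 in HOLS and between 6538 and 10954 in MONT, and the lines of miR-195 and miR-497 go up in every cow but MONT cow 9615 on this scale.

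Counted over the whole family, 0 of 6 members passed the threshold of 0.05 in HOLS in the edgeR fit, and 0 of 6 had an unadjusted p under 0.05. Among all 374 miRNAs tested in HOLS, 9 passed, all lower in REST (2.41%), and 0% passed as higher. That fit leaves out the pairing of a cow's libraries. With the cow as a block, 1 of 6 members passed as higher, beside 8.02% of all miRNAs tested that passed as higher and 8.29% that passed as lower. In the blocked edgeR fit 2 of 6 members had an unadjusted p under 0.05. No member had periods that did not overlap, beside 7.22% of all miRNAs tested in HOLS. The members' median log2 fold change was 0.18, beside 0.02 over all miRNAs tested in HOLS. In MONT, 0 of 6 members passed and 1 of 6 had an unadjusted p under 0.05, beside 0% of all 349 miRNAs that passed in either direction, with or without the block. In MONT also no member had periods that did not overlap, beside 0.287% of all miRNAs. The members' median there was 0.24, beside -0.01 over all miRNAs tested. DESeq2 called 0 of 6 members in either breed.

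The change under restriction was also compared between the breeds, by the term for breed and period together in a fit of all 22 libraries. For none of the 6 members did the edgeR test of this difference pass, and 0 of 6 had an unadjusted p under 0.05. DESeq2 called 0 of 6 as well. Of all 388 miRNAs tested 0% passed in either direction, with or without the block. The largest differences were 0.24 ± 0.19 (SE) on the log2 scale for miR-497, with MONT above HOLS, and -0.21 ± 0.23 for miR-16a, with edgeR's adjusted p of 0.991 for both.

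Marker miRNAs of cell types were read in the same samples. Without the block, edgeR called 0 of them in HOLS in either direction. The paper's own DESeq2 comparison in HOLS listed miR-143 and miR-155 as higher and miR-200b and miR-200c as lower, and none of the other marker miRNAs. In HOLS with the cow as a block, edgeR called 2 of 2 smooth muscle miRNAs (miR-143 and miR-145) as higher in REST. It also called 3 of 6 leukocyte miRNAs (miR-142-5p, miR-155 and miR-146a) and 1 of 2 endothelial miRNAs (miR-126-3p) as higher. Of the red blood cell list miR-486 passed as higher, but only 1 of 3 lay above 0, and the list's median log2 fold change was -0.13. Of the epithelial list miR-200b, miR-200c and miR-429 passed as lower, and 2 of 6 lay above 0. Of all miRNAs tested in this blocked fit, 8.02% passed as higher and 8.29% as lower. With libraries scaled by their totals alone, the blocked fit called 6 of all miRNAs tested higher and 62 lower. The summed level of the smooth muscle list lay between 1656203 and 2531204 normalized counts in HOLS CONT and between 2469876 and 3162146 in HOLS REST. That of the leukocyte list lay between 22895 and 34005 in CONT and between 21921 and 50989 in REST, that of the endothelial list between 273690 and 361947 and between 326521 and 483727, and that of the epithelial list between 402911 and 514772 and between 267405 and 641434. None of the miRNAs listed in these lists was at 0 in any library. In MONT none of the marker miRNAs passed in edgeR, with or without the block, where the smooth muscle list lay between 2090118 and 4176161 before and between 2318454 and 4837677 under restriction, and the epithelial list between 194560 and 527079 and between 139184 and 372027. The part of these cell types in the values of miR-195, miR-497 and miR-16b was not tested.

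Other miRNAs known to act on the G1 to S transition were read in the same fits. Of the 23 on this list (among them let-7a-5p, miR-17-5p, miR-34a, miR-221, miR-222, miR-26a and miR-26b), 22 were listed and 21 tested in HOLS and 20 in MONT. Without the block 0 of 21 passed in HOLS in edgeR, with 5 at an unadjusted p under 0.05, and 0 of 20 passed in MONT, with 1 under 0.05. The paper's own DESeq2 comparison in HOLS listed miR-222 and miR-26b as higher, and no other miRNA of this list. With the cow as a block, edgeR called miR-222 and miR-26b higher and miR-106a lower in HOLS, 2 and 1 of 21 beside 8.02% and 8.29% of all miRNAs tested, and 0 in MONT. miR-222 represses a cell cycle inhibitor, while the miR-26 family represses cyclins. The list's median log2 fold change without the block was 0.07 in HOLS and 0.14 in MONT, beside the family's 0.18 and 0.24.

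The second question was whether the breeds differed. miR-16a was lower in MONT than in HOLS in both periods, and within each period no library of one breed overlapped the other. In CONT the values of miR-16a were 12111 to 16766 normalized counts in HOLS and 7403 to 10954 in MONT. In REST they were 10872 to 22357 in HOLS and 6538 to 10420 in MONT. MONT over HOLS gave a log2 fold change of -0.77 ± 0.14 (SE) in CONT, a ratio of 0.585, with edgeR's adjusted p of 0.0415. In REST it was -1.04 ± 0.17, a ratio of 0.488, with edgeR's adjusted p of 0.00764. The call in REST held with any single cow left out, with adjusted p up to 0.0294, whereas that in CONT was lost without any one of HOLS cows 1155, 1165, 8200 and 9195 or MONT cows 1640, 1652 and 9615, with adjusted p between 0.0505 and 0.114. DESeq2 gave an adjusted p of 0.000116 for miR-16a in CONT. Each cow is in both periods, so the periods are not independent looks at the breeds.

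miR-16b was also lower in MONT, by less. In CONT its values were 7500.2 to 9723 normalized counts in HOLS and 4384 to 7466 in MONT, which do not overlap, though only by a narrow gap. In REST they were 8404 to 12724 and 6459 to 9365, and MONT cows 1613 and 1652 reached above HOLS cow 2182. The log2 fold change was -0.42 ± 0.14 (SE) in CONT and -0.42 ± 0.14 in REST, with edgeR's adjusted p of 0.152 and 0.0524. Neither passed the threshold in edgeR, and DESeq2's adjusted p in REST was 0.0217. Without HOLS cow 2182 or MONT cow 1652 edgeR's adjusted p in REST was 0.0417 and 0.0442.

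Added up, miR-16a and miR-16b ranged from 20246 to 26489 normalized counts in HOLS CONT and from 12048 to 18115 in MONT CONT, and the breeds did not overlap. In REST the sum ranged from 19277 to 35081 in HOLS and from 13768 to 18851 in MONT, again without overlap, though only by a narrow gap. Of all miRNAs tested, 2.78% had breeds that did not overlap in CONT and 8.99% in REST. For the sum the log2 fold change was -0.63 ± 0.13 (SE) in CONT, with edgeR's adjusted p of 0.0573, and -0.77 ± 0.14 in REST, with an adjusted p of 0.00846. The call in CONT was thus lost in the sum and the one in REST was not.

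The other members did not pass between the breeds. miR-15a, the partner of miR-16a, had a log2 fold change of MONT over HOLS of -0.14 ± 0.14 (SE) in CONT and -0.25 ± 0.13 in REST, with edgeR's adjusted p of 0.617 and 0.186. miR-195 gave -0.15 ± 0.23 and -0.20 ± 0.17, and miR-497 gave -0.02 ± 0.15 and 0.17 ± 0.15. miR-15b gave 0.13 ± 0.21 and 0.22 ± 0.23. The edgeR adjusted p of these last members lay between 0.428 and 0.966 over both periods.

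**Figure D3:**
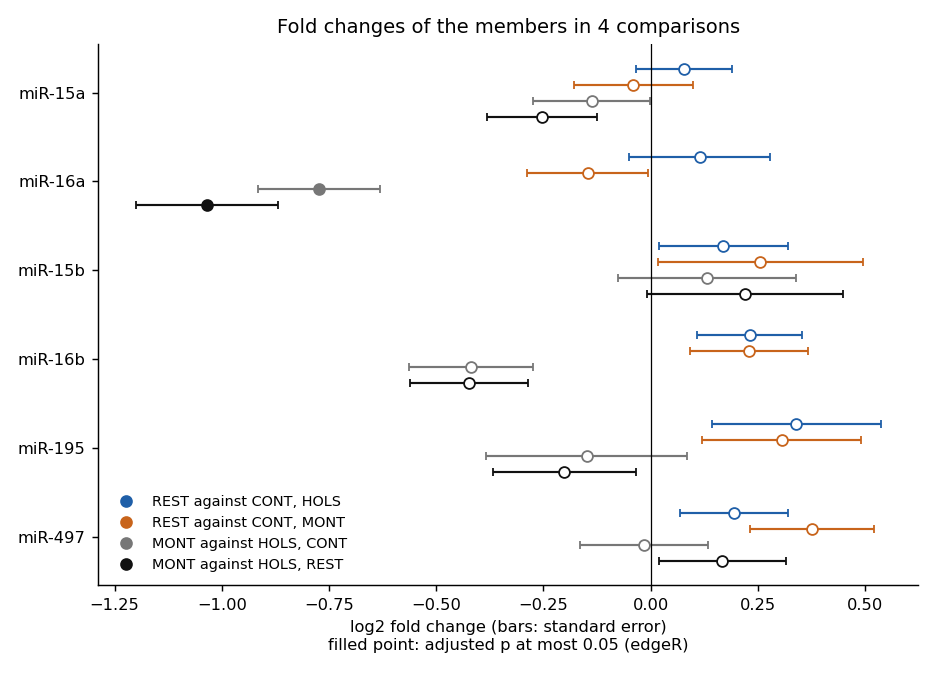
Log2 fold changes (horizontal axis) of each member (vertical axis) from the edgeR fits without the cow as a block, for REST against CONT in each breed and for MONT against HOLS in each period, with bars of 1 standard error. The filled points of miR-16a, at -0.77 and -1.04, are the only ones past the threshold, and all 4 restriction values of miR-195 and miR-497 lie above 0.

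In CONT, 1 of 6 members passed as lower in MONT, beside 0.556% of all 360 miRNAs tested (2 miRNAs in all), and 0% of all miRNAs passed as higher. The groups did not overlap for 2 of 6 members, beside 2.78% of all miRNAs. In REST, 1 of 6 members passed as lower, beside 5.56% of all 378 miRNAs tested, and 0 of 6 passed as higher, beside 9.79%. With libraries scaled by their totals alone, 41 of all miRNAs tested passed as higher and 13 as lower in REST, in place of 37 and 21. The groups did not overlap for 1 of 6 members in REST, beside 8.99% of all miRNAs. Of the G1 to S list 0 of 21 passed in CONT, with 3 at an unadjusted p under 0.05, and 3 of 21 passed as higher in MONT in REST (let-7c, miR-221 and miR-222). The members' median log2 fold change was -0.14 in CONT and -0.23 in REST, beside 0.01 and 0.03 over all miRNAs tested.

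Between the breeds, markers also differed. The epithelial list summed to between 402911 and 514772 normalized counts in HOLS CONT and between 194560 and 527079 in MONT CONT. In REST it summed to between 267405 and 641434 in HOLS and between 139184 and 372027 in MONT. In edgeR's comparison of the breeds in REST miR-200c and miR-141 of the 6 epithelial miRNAs passed as lower in MONT and miR-205 as higher. Of the endothelial list 1 of 2 passed as lower in MONT in REST (miR-126-3p). Of all 378 miRNAs tested in this REST comparison, 5.56% passed as lower and 9.79% as higher. In CONT 0 markers passed in edgeR. The part of these cell types in the breed difference of miR-16a was not tested. The paper describes the MONT libraries as lower in quality than those of HOLS, with more short reads and adapters and fewer reads kept after cleaning. Breed cannot be told apart from this difference, or from any difference in handling between the libraries of the breeds.

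miR-16 is abundant in red blood cells, so their miRNAs are given beside it. miR-451, the most specific of them, lay between 1726 and 2601 normalized counts in HOLS CONT and between 1506 and 2773 in HOLS REST. In MONT CONT it stood at 6326 and 5778 in cows 1613 and 2614 and between 1032 and 1362 in the other 4 cows, and in MONT REST it ranged from 818 to 2346. The MONT median of miR-451 was below that of HOLS in both periods, at 1331 against 2140 in CONT and 1106 against 1796 in REST. Its MONT mean in CONT was above that of HOLS, at 2838 against 2143. For MONT over HOLS in CONT, 3 of 3 red blood cell miRNAs lay above 0, with a median log2 fold change of 0.33. In REST 0 of 3 did, with a median of -0.42. A comparison without cows 1613 and 2614 was added after the values were seen. In it the log2 fold change of miR-16a in CONT was -0.80, with edgeR's adjusted p of 0.0229. None of the 3 red blood cell miRNAs (miR-451, miR-144 and miR-486) passed between the breeds in edgeR. The part of red blood cells in the breed difference of miR-16a was not tested.

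Ratios of members within a library need no scaling between libraries. The ratio of miR-16a to miR-16b counts was 1.60, 1.72, 1.49, 2.22 and 1.78 in the HOLS cows in CONT and 1.56, 1.76, 1.29, 1.56 and 1.86 in REST. In MONT it lay between 1.135 and 1.75 in CONT and between 0.866 and 1.37 in REST, and it was lower in REST in 5 of 6 cows, cow 9615 again being the exception. The breeds overlapped in both periods. On the log2 scale the change per cow was -0.13 ± 0.24 (SD, n = 5) in HOLS and -0.38 ± 0.38 (SD, n = 6) in MONT. This ratio depends directly on how reads that fit both miRNAs were assigned.

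The ratio of miR-15a to miR-16a, which come from one transcript, lay between 0.161 and 0.333 in HOLS and between 0.271 and 0.456 in MONT. HOLS cow 2182, with 0.298 in CONT and 0.333 in REST, reached into the MONT range, and the other HOLS libraries lay at or below 0.222. Per cow this ratio moved by -0.02 ± 0.16 (SD, n = 5) on the log2 scale in HOLS and 0.11 ± 0.16 (SD, n = 6) in MONT. The partners of the other pairs stood in ratios of 3.77 for miR-195 to miR-497, with a range from 2.42 to 5.47, and 0.0264 for miR-15b to miR-16b, with a range from 0.0153 to 0.0510, as geometric means over the 22 libraries. miR-195 to miR-497 was higher in REST in 4 of 5 HOLS cows and 2 of 6 MONT cows.

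**Figure D4:**
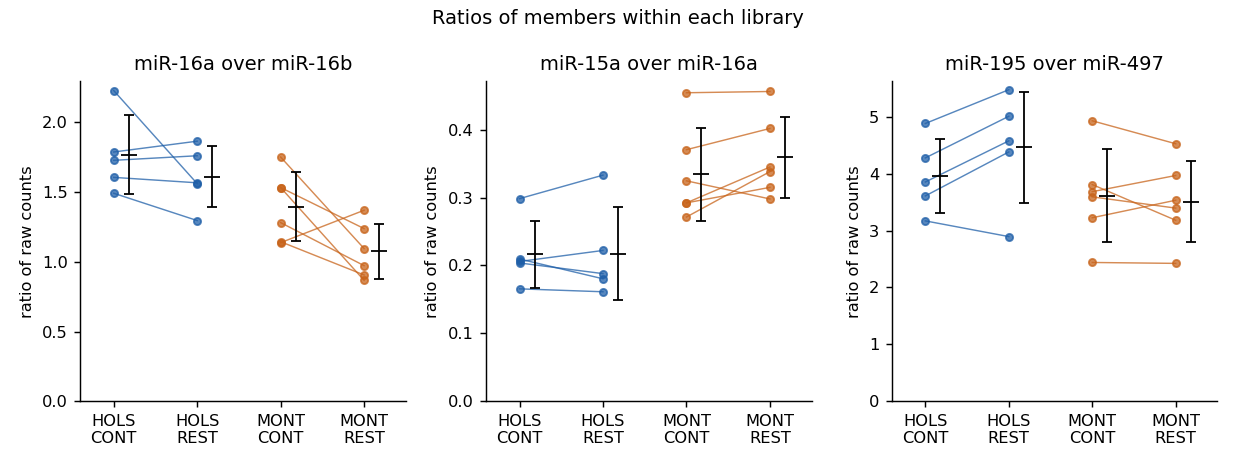
Ratios of raw counts within a library (vertical axes, from 0) for miR-16a over miR-16b, miR-15a over miR-16a and miR-195 over miR-497, by breed and period (horizontal axis), with the libraries of a cow joined and the mean and SD of each group in black. miR-16a over miR-16b is lower in REST in 5 of 6 MONT cows, and miR-15a over miR-16a stays at or below 0.222 in HOLS outside cow 2182.

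Between pairs, the ratio of miR-15a and miR-16a to miR-195 and miR-497 was lower in REST in 5 of 5 HOLS cows, by 0.24 ± 0.20 (SD) on the log2 scale, and in 5 of 6 MONT cows, with a mean change of -0.46 ± 0.47 (SD). As a geometric mean it stood at 2.10 in CONT and 1.78 in REST in HOLS, and at 1.47 and 1.07 in MONT. The ratio of miR-15a and miR-16a to miR-15b and miR-16b was lower in REST in 3 of 5 HOLS and 5 of 6 MONT cows. Within groups the spread of a ratio was not smallest for partners of one pair. The pooled SD on the log2 scale was 0.22 for miR-15a to miR-16b and 0.24 for miR-16a to miR-16b, and 0.31 for the partners miR-15a and miR-16a, 0.31 for miR-195 and miR-497 and 0.38 for miR-15b and miR-16b.

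The miRNAs whose levels followed each member most closely were read as Pearson's r of log2 normalized counts, centred within breed, over the 22 libraries and 382 other miRNAs, and they are given as a description. The libraries share cows, tissue composition and scaling. miR-195 was closest to miR-342 (r = 0.92), miR-874 (r = 0.92) and miR-99a-5p (r = 0.87), and miR-497 to miR-125b (r = 0.90), miR-199b (r = 0.89) and miR-3604 (r = 0.86). miR-15b was closest to miR-301a (r = 0.82), miR-369-3p (r = 0.79) and miR-136 (r = 0.77). miR-16b was closest to miR-142-5p and miR-155, both of the leukocyte list, and to miR-125b, each at r = 0.71. miR-15a was closest to miR-423-3p (r = 0.72), miR-421 (r = 0.70) and miR-425-5p (r = 0.68), and miR-16a to miR-2285k (r = 0.69), miR-148c (r = 0.68) and miR-152 (r = 0.68). miR-148c and miR-152 had almost the same values, with log2 fold changes of REST over CONT of -0.1668 and -0.1669 in MONT. They are thus not separate matches. No member was the closest match of its own partner, with r = 0.61 for miR-195 and miR-497, 0.26 for miR-15b and miR-16b and 0.21 for miR-15a and miR-16a. miR-15a ran against miR-15b, with r = -0.48.

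Outside the named members, miR-424-5p and miR-503-5p carry the same or a closely similar seed and come from neighbouring genes. miR-424-5p was scarce, with 69.2 to 217 normalized counts and place 198 of 796. Its log2 fold change of REST over CONT was 0.12 ± 0.16 (SE) in HOLS and 0.31 ± 0.28 in MONT, with edgeR's adjusted p of 0.711 and 0.556, and it was higher in REST in 3 of 5 and 5 of 6 cows. miR-503-5p had at most 4 counts in any library and could not be compared.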

How the data were processed

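Small RNA of 22 mammary biopsies was sequenced from TruSeq libraries. The authors trimmed and size-filtered the reads, quantified them with ncPRO-seq and miRDeep2 against the bovine genome and miRBase, and deposited whole-number counts per miRNA without normalization. The deposited tables also hold the authors' normalized counts, fold changes and p-values, which were not used. Libraries were grouped by breed and period from the labels. Counts were divided by DESeq2 size factors for levels, with a pseudocount of 1 for log2 values. Comparisons used edgeR 4.0.16 (R 4.3.3): TMM, the filterByExpr filter (minimum count 10), quasi-likelihood F tests and Benjamini-Hochberg adjustment over all miRNAs tested, with a threshold of 0.05. SE is the absolute log2 fold change divided by the square root of F. Blocking by cow, which the study's methods do not mention for the miRNA counts, was an alternative. The labels give both libraries of a number to 1 cow. Their deviations from the group means correlated with r from 0.24 to 0.50 in HOLS, from 0.12 to 0.69 in 5 MONT cows and with -0.20 in cow 9615. Alternatives were DESeq2 1.42.0, 3 other scalings, 2 other filters, a threshold of 0.10, library totals without the members, and each cow left out. The sum of miR-16a and miR-16b, the fits without cows 1613 and 2614, and the blocked fits with other scalings or each cow left out were added after seeing the data. The rule for naming took the 6 members, 2 miRNAs with a like seed, the 3 miRNAs with the highest r to each member, and red blood cell miRNAs. The members and the lists were chosen with earlier results of these data known. Total counts of 6087865 to 18913916 per library limit precision most for miR-15b, the scarcest member. The steps were tested on simulated counts.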

Additional observations from a re-analysis of the deposited data

Results flagged for a closer look

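Of 48 groups of 5 or 6 libraries checked for a value far from the rest (6 members, miR-424-5p, miR-451 and 4 ratios of members, in each breed and period), 2 held one, and chance flags about 1 in 20. miR-16b in MONT CONT was 4384 normalized counts in cow 2614, with the next cow at 6481. miR-195 in MONT CONT was 10846 normalized counts in cow 9615, with the next cow at 7101, and this was the cow in which miR-195, miR-497 and miR-16b were lower in REST. No explanation was tested for either value.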

How the results depend on the processing

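With each cow left out in turn, with or without the replicate block, 0 to 1 members passed for HOLS REST against CONT, 0 to 2 for MONT REST against CONT, 0 to 1 between the breeds in CONT and 1 to 2 between the breeds in REST. The replicate block (the pairing of a cow's libraries) called 1 member in HOLS, also with upper quartile (adjusted p 0.0408 for miR-195) or DESeq2 size factors (0.0132), and 0 with library size only, and it changed no call in MONT or for the interaction. A threshold of 0.10 and DESeq2 each called 2 members between the breeds in REST, miR-16a and miR-16b. Library size only turned the HOLS values of miR-15a, miR-16a and miR-15b to -0.10, -0.066 and -0.0017, and with the block to -0.10, -0.078 and -0.0076, while the median of all miRNAs moved from 0.02 to -0.15. Upper quartile moved that median in MONT from -0.01 to -0.19. Library size only moved it between the breeds in REST from 0.03 to 0.15. Without single cows the value ranged from -0.0031 to 0.095 for miR-15a in HOLS, from -0.077 to 0.043 for miR-15a in MONT, and between the breeds in CONT from -0.35 to 0.012 for miR-195 and from -0.080 to 0.044 for miR-497. With the block as well, miR-16a in HOLS turned to -0.0030 without cow 1165, and miR-15a in MONT to 0.046 without cow 1640 and 0.0040 without cow 5663. Without cows 1613 and 2614 miR-497 turned to 0.063 between the breeds in CONT. With miR-16a and miR-16b added up, the MONT value of miR-16a turned to 0.070. Of 565 pairs of a member's value and an alternative, 524 kept direction and side of the threshold, 20 turned, 13 gained and 8 lost a call. For the term of breed and period together, this tally took in miR-16a and miR-497 only, the members with the largest differences. The mean log2 ratio of miR-15a and miR-16a to miR-15b and miR-16b, 0.81, became 3.86 for miR-15a to miR-15b alone, and it moved by less than its SD with a pseudocount of 1 or with pairs taken from RefSeq neighbours, which are the same pairs. As a percent of the library, the mean HOLS change per cow was -0.10 for miR-15a, 0.06 for miR-16b and 0.19 for miR-195. Over all miRNAs, HOLS calls went from 9 to 61 with the block, 26 with DESeq2 or a threshold of 0.10, 20 with library size only and 5 without a filter, and lay between 3 and 14 with single cows left out. MONT calls went from 0 to 46 without cow 9615 and to 140 with the block as well. Calls between the breeds went from 2 to 20 with DESeq2, 7 at 0.10, 1 with library size only or upper quartile, and 26 without cows 1613 and 2614 in CONT, and from 58 to 89 with DESeq2 and 97 at 0.10 in REST. With single cows left out they lay between 0 and 6 in CONT and between 38 and 77 in REST. The cause of these shifts was not tested.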
